A study of Mus musculus with 18 samples.

Results

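The Notch pathway was followed through 8 of its genes: the receptors Notch1, Notch2 and Notch3, the ligand Jag1, and Hes1, Hes5, Hes6 and Hey1 of the Hes and Hey family of transcriptional repressors. They were chosen by name, as listed genes, out of 55401 gene IDs in the deposited tables, and all 8 were among the 17795 genes that passed the filter on low counts. Poly(A) RNA was sequenced in 18 libraries, 3 in each of 6 groups. All groups were made from the mouse embryonic stem cell line RHKI, a derivative of E14Tg2a, and all carry a knock-in of HA-tagged Rnaseh1, the enzyme that removes RNA from RNA-DNA hybrids (R-loops), so the controls differ from the treated cells in doxycycline (Dox) and not in genotype. The cells were kept in 2i/LIF medium. Day 0 is 0 h of differentiation, and day 3 (72 h) and day 5 (120 h) are gastruloids, which are stem cell aggregates that self-organise into tissues like those of the embryo. Cells of the Dox groups were exposed to 500 ng/ml for 48 h and then taken into differentiation. Whether exposure went on after that is not given in the labels. The series asks how R-loops bear on the allocation of cells to lineages.

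Notch receptors sit in the membrane and are switched on by ligands of the Delta and Jagged families on a neighbouring cell. A cut within the membrane then frees the inner part of the receptor, which enters the nucleus, joins the DNA-binding protein RBPJ and a Mastermind coactivator, and turns on genes such as Hes1, Hes5 and Hey1. These repressors keep neural progenitors from becoming neurons, while Hes6 is a related protein that opposes Hes1 and is not usually counted as a direct Notch target. In the presomitic mesoderm the same pathway takes part in the segmentation of somites.

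The start of Hes5 is shown first because it is a short promoter with the RBPJ core letters next to the one of the 8 genes whose level moved most, and that of Lfng because it was the only gene found with these letters that passed in Dox against control at day 5. Both are the 250 bases before the RefSeq start of the gene on GRCm38.p6, 5′ to 3′ on the plus strand, and capitals mark the RBPJ core GTGGGAA or its reverse complement.
Hes5, chr4:154960673-154960922: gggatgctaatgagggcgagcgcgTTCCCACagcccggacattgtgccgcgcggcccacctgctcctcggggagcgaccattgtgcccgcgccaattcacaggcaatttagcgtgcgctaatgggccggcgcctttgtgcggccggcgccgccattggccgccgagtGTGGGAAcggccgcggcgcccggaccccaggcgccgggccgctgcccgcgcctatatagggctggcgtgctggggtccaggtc
Lfng, chr5:140607091-140607340: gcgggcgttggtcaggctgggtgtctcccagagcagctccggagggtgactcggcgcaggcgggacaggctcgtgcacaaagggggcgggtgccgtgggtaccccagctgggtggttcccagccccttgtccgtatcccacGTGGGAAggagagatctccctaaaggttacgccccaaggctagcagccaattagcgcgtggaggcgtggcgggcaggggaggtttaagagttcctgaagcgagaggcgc

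In Hes5 the core stands on both strands, its first base at -226 on the minus strand and at -83 on the plus strand. In Lfng it stands once, at -109. Of 32851 mouse promoter windows of 250 bases, 5.42% hold the core on either strand and 0.161% hold 2 or more. Promoters were matched for 6 of the 8 genes (Hes1 and Hey1 had none in the table), and Hes5 was the only one of these 6 with the core. Among 57 further pathway genes 44 were matched, and Hes7, Hey2, Lfng, Psen2 and Spen held it. A match is a description of letters and not evidence of binding.

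On GRCm38, Notch1 lies on chromosome 2 (26457903 to 26516663, minus strand, ENSMUSG00000026923.15), Notch2 on chromosome 3 (98013527 to 98150361, plus, ENSMUSG00000027878.11), Notch3 on chromosome 17 (32120820 to 32166852, minus, ENSMUSG00000038146.8) and Jag1 on chromosome 2 (137081456 to 137116644, minus, ENSMUSG00000027276.7). Hes1 lies on chromosome 16 (30064384 to 30067796, plus, ENSMUSG00000022528.8), Hes5 on chromosome 4 (154960923 to 154962371, plus, ENSMUSG00000048001.7), Hes6 on chromosome 1 (91411483 to 91414038, minus, ENSMUSG00000067071.8) and Hey1 on chromosome 3 (8663359 to 8667256, minus, ENSMUSG00000040289.8). Notch1, Notch2, Notch3 and Hes5 overlap other annotated genes, some on the opposite strand. Over all libraries these hold few counts, at most 287 for a gene overlapping Notch1 against 73590 for Notch1 itself.

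Total counts per library ranged from 25748897 to 38128366. The Dox label was checked on Rnaseh1, which had 28.3 ± 2.3 depth-scaled counts (CPM) in control and 153 ± 18 in Dox at day 0 (SD, n = 3), 23.5 ± 1.1 and 68.1 ± 2.1 at day 3, and 19.7 ± 0.37 and 57.1 ± 3.3 at day 5. Of 8 pluripotency markers 8 had a mean of at least 1 TPM in control at day 0, 7 at day 3 and 2 at day 5. Of 8 neural progenitor markers 3, 4 and 7 did. At day 5 this was also so for 7 of 8 somite and 7 of 8 young neuron markers. One library stands apart in its makeup: day 0 Dox replicate 2 had 4.761% of its counts in an rRNA gene against 0.144 to 0.483% in the others. Replicates varied more at day 0, where the median chi-square per gene between 2 libraries of a group was 1.503 to 3.481, than at day 3 (0.766 to 1.59) or day 5 (0.836 to 1.898). Nothing says that replicates are separate cultures, so the p-values below measure the spread between these libraries, which may be technical.

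The first comparison asks how the pathway changed while control cells differentiated. Levels are given as TPM, which is scaled to transcript length and allows genes to be compared, and tests are on counts, with differences on the log2 scale ± standard error (SE) and p-values of edgeR's quasi-likelihood test adjusted by Benjamini-Hochberg over all genes tested. From day 0 to day 3 all 8 genes passed the threshold of an adjusted p under 0.05, 5 higher and 3 lower, in a comparison where 73.5% of all genes passed (37.2% higher and 36.3% lower). From day 3 to day 5, 7 of 8 passed, 6 higher and 1 lower, where 64.8% of all genes passed (31.7% higher and 33.1% lower). The median log2 difference of the 8 genes was 1.01 and 1.34 in the 2 steps, beside 0.016 and -0.008 over all genes. In bulk RNA, a change in the share of cells of a type and a change in RNA per cell cannot be told apart.

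**Figure D1:**
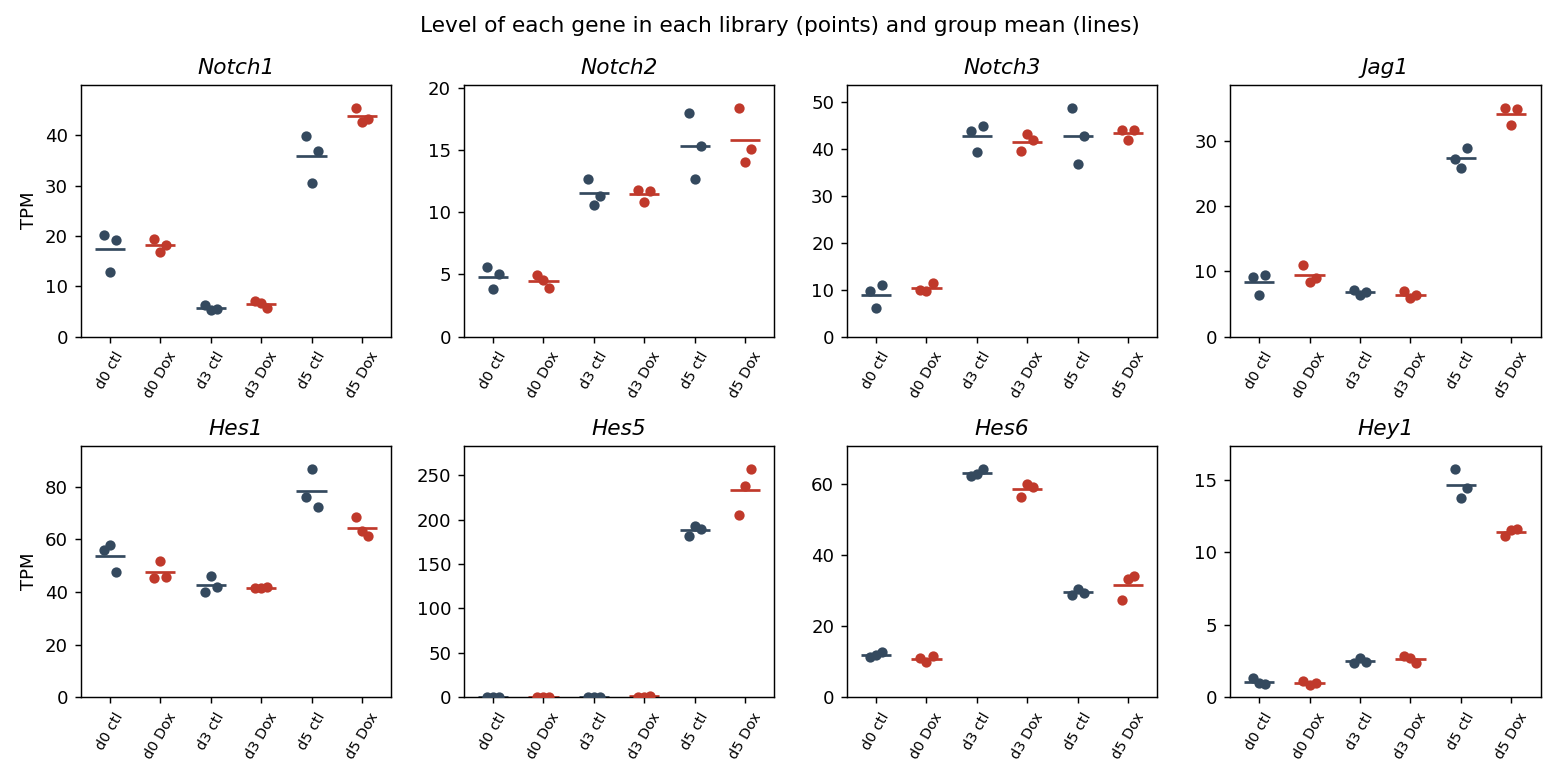
Level of each gene in TPM (vertical axis, linear, a scale of its own in each panel) in each of the 18 libraries (points) by day and treatment, with the group mean as a line. Notch1 and Jag1 are lowest at day 3, Hes6 is highest there, and Hes5 lies near 0 until day 5.

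Among the receptors, Notch1 fell and then rose above its start. Its level in the 3 control libraries was 20.18, 12.76 and 19.27 TPM at day 0, 6.21, 5.29 and 5.38 TPM at day 3, and 39.89, 30.56 and 36.87 TPM at day 5. No library of one day overlapped another day. The decrease to day 3 was 3.27-fold (log2 difference -1.71 ± 0.1, adjusted p = 2.4e-11) and the increase to day 5 was 5.65-fold (2.5 ± 0.1, adjusted p = 2e-13).

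Notch3 moved the other way at first. It stood at 9.68, 6.1 and 10.96 TPM in control at day 0, and at 43.92, 39.46 and 45.05 TPM at day 3, a 4.38-fold rise (log2 difference 2.13 ± 0.12, adjusted p = 7.4e-12). At day 5 the libraries were at 48.83, 36.88 and 42.91 TPM, on both sides of the day 3 level. In CPM, however, every day 5 control library (202, 165 and 193) lay below every day 3 control library (211, 204 and 205). The difference between these days did not pass (-0.15 ± 0.11, adjusted p = 0.26), although it had an adjusted p of 0.045 when control replicate 2 of day 0 was left out of the fit.

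Notch2 rose throughout by smaller steps. It had 5.58, 3.82 and 4.99 TPM in control at day 0, 12.7, 10.61 and 11.29 TPM at day 3 and 17.94, 12.7 and 15.34 TPM at day 5. The first step was 2.17-fold (log2 difference 1.12 ± 0.12, adjusted p = 6.6e-08). In the second the libraries of the days overlap, and the 1.23-fold rise (0.3 ± 0.11, adjusted p = 0.024) no longer passed without day 3 control replicate 2 or 3 or day 5 control replicate 1 or 3, with adjusted p up to 0.14.

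Among Notch1, Notch2 and Notch3 the most abundant transcript differed by day. The summed TPM of Notch1, Notch2 and Notch3 was 31.1 on average in control at day 0, 60 at day 3 and 94 at day 5. Notch1 made up 56 ± 1.1% of this sum at day 0, 9.39 ± 0.6% at day 3 and 38.1 ± 0.68% at day 5 (SD, n = 3), while Notch3 made up 28.4 ± 2.3%, 71.4 ± 1.5% and 45.6 ± 0.47%. Notch2 kept between 15.6 and 19.2% on average. Notch4, the receptor best known from blood vessels and listed among the other pathway genes, dropped from 51.7 to 1.34 CPM between day 0 and day 3 (log2 difference -5.27 ± 0.21, adjusted p = 5.7e-14). It is not part of the sum above. In control its mean was 18 TPM at day 0, beside 17.4 TPM for Notch1, then 1.16 TPM at day 3 and 4.72 TPM at day 5. The sum and shares, at day 0 above all, therefore hold for Notch1, Notch2 and Notch3 only.

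**Figure D2:**
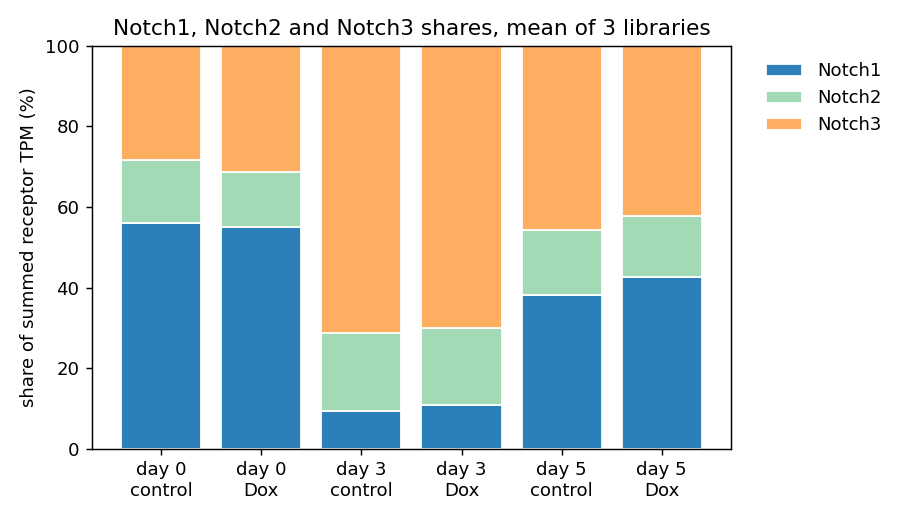
Share of Notch1, Notch2 and Notch3 in their summed TPM (vertical axis, %), as the mean of the 3 libraries of each group. Notch1 holds 56% in control at day 0, 9.39% at day 3 and 38.1% at day 5, and Notch3 holds 71.4% at day 3.

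Jag1, a ligand of these receptors, had a course like that of Notch1. It had 9.18, 6.44 and 9.51 TPM in control at day 0, 7.22, 6.44 and 6.79 TPM at day 3, and 27.3, 25.92 and 28.9 TPM at day 5. The decrease to day 3 was 1.45-fold in the count model (log2 difference -0.54 ± 0.09, adjusted p = 2.9e-05), but on log2(TPM + 1) it was -0.25 (adjusted p = 0.073, limma), and the TPM of the 2 days overlap. The rise to day 5 was 3.81-fold (1.93 ± 0.09, adjusted p = 8.3e-13) with no overlap. Over the 18 libraries Jag1 and Notch1 correlated at r = 0.926 in log2 CPM, a description over libraries that share their days.

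Of the target genes, Hes5 was almost silent until day 5. Its counts were 2, 0 and 0 in control at day 0 and 11, 17 and 25 at day 3, so that 53 counts stood against 2 (23 times higher per depth, 95% exact interval 6.05 to 195, which covers counting error only, edgeR adjusted p = 4.5e-05). Both day 0 counts came from replicate 1, and the fitted log2 difference, 4.16 ± 0.76, was 6.97 without that library, and 0.51 on log2(TPM + 1), a scale that understates changes of low genes (adjusted p = 0.019, limma). At day 5 it had 3016, 3752 and 4293 counts, or 182, 192.34 and 188.87 TPM, which made it the most abundant of the 8 transcripts. The rise from day 3 was 224-fold (log2 difference 7.81 ± 0.18, adjusted p = 3.3e-17).

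Hes1, in contrast, was present at each day. Control libraries had 56, 57.95 and 47.42 TPM at day 0, 40.06, 46.18 and 41.88 TPM at day 3 and 76.13, 86.85 and 72.18 TPM at day 5. It fell 1.37-fold to day 3 (log2 difference -0.46 ± 0.1, adjusted p = 3e-04) and rose 1.69-fold to day 5 (0.76 ± 0.09, adjusted p = 1e-06). It was the most abundant of the 8 at day 0.

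Hey1 was the lowest of the targets at day 5. Its control libraries were at 1.35, 1 and 0.91 TPM at day 0, 2.34, 2.73 and 2.41 TPM at day 3 and 15.76, 13.73 and 14.44 TPM at day 5. Both steps were upward, 1.86-fold (log2 difference 0.9 ± 0.14, adjusted p = 1e-05) and 5.36-fold (2.42 ± 0.12, adjusted p = 2.1e-12). With Hes5 it had the highest correlation of any pair of the 8 genes (r = 0.988 in log2 CPM over 18 libraries).

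Hes6 peaked at day 3. It had 11.29, 11.87 and 12.67 TPM in control at day 0, 62.45, 63.04 and 64.45 TPM at day 3, more than any other of the 8 genes, and 28.74, 30.64 and 29.53 TPM at day 5. The rise was 4.85-fold (log2 difference 2.28 ± 0.09, adjusted p = 2.1e-14) and the decrease 2.31-fold (-1.21 ± 0.08, adjusted p = 1.4e-10). Over the 18 libraries it correlated negatively with Notch1 (r = -0.623) and positively with Notch3 (r = 0.862).

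The 57 other pathway genes, of which 54 were tested, were taken from a list by role. In control 27 were higher and 20 lower at day 3 than at day 0, 87% of those tested beside 73.5% of all genes, with a median log2 difference of 0.16. All 5 tested genes listed with the Hes and Hey family, Bhlhe40 among them, rose, although Heyl had only 0 counts at day 0 and 7 at day 3. Of 5 tested ligands 4 rose, while 6 of 9 corepressors fell. Over all genes 37.2% were higher and 36.3% lower. Among genes that reached 5 CPM at either day, the largest increases were in Maml3, a Mastermind coactivator (0.132 to 10 CPM, log2 difference 6.22 ± 0.22, adjusted p = 7.2e-15), the ligand Dll1 (0.281 to 9.96 CPM, 5.1 ± 0.26, adjusted p = 1.4e-12) and Dtx4, a Deltex ubiquitin ligase (1.04 to 21.2 CPM, 4.37 ± 0.19, adjusted p = 2.7e-13). Beside Notch4, the largest decreases at that level were in Rbpj itself (276 to 96.1 CPM, -1.52 ± 0.1, adjusted p = 9.8e-11) and Maml2 (10.1 to 3.68 CPM, -1.47 ± 0.13, adjusted p = 7.6e-09). On log2(TPM + 1) the differences were smaller, at 1.46 for Maml3, 2.51 for Dll1, 2.44 for Dtx4 and -3.13 for Notch4. Below 5 CPM, the corepressor Tle2 went from 3.69 to 0.109 CPM (-5.11 ± 0.48, adjusted p = 1.4e-08).

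From day 3 to day 5, 28 of the 54 rose and 10 fell, 70.4% beside 64.8% of all genes, with a median of 0.22. By the same limit of 5 CPM the largest rises were in Heyl, a Hey family repressor (0.0699 to 18.6 CPM, log2 difference 8.08 ± 0.34, adjusted p = 1.8e-12, but 2.94 on log2(TPM + 1)), Lfng, which adds a sugar to Notch and changes its response to ligands (1.53 to 107 CPM, 6.12 ± 0.1, adjusted p = 9.3e-19), and Hes3 (2.18 to 96.3 CPM, 5.5 ± 0.18, adjusted p = 5.7e-15). Those that fell most were Bhlhe40 (59.2 to 1.94 CPM, -4.94 ± 0.26, adjusted p = 5.9e-12), Dll3 (16.8 to 3.06 CPM, -2.46 ± 0.17, adjusted p = 3e-10) and Dtx1 (21.4 to 4.23 CPM, -2.35 ± 0.17, adjusted p = 7.4e-10). Hes3 and Hes5 are both known from neural progenitors, and both lay near 0 before day 5.

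The second comparison asks what Dox, and with it induced Rnaseh1, changed at each day. None of the 8 genes passed at any day. Over all genes 1.04% passed at day 0, 0.0169% at day 3 and 4.74% at day 5. At an unadjusted p under 0.05 there were 1 of the 8 at day 0 (12.3% of all genes), 0 at day 3 (2.43%) and 5 at day 5 (16.4%). The median log2 difference of the 8 genes was -0.04, 0 and 0.06 at the 3 days, beside -0.001, 0 and 0.003 over all genes. Other fits called up to 1 of the 8 at day 0, none at day 3 and up to 5 at day 5, as given with the genes below. Without day 0 Dox replicate 2, the library with the rRNA counts, none passed at day 0.

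**Figure D3:**
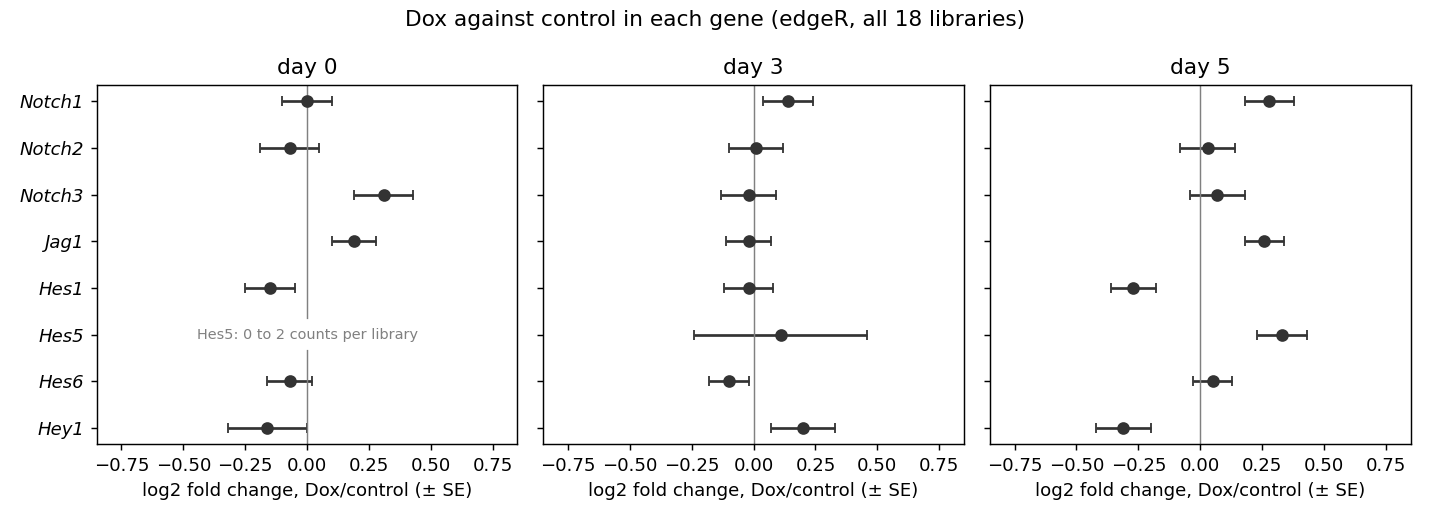
Log2 fold change of Dox over control (horizontal axis, points, with bars of ± 1 SE) for each gene at each day, from edgeR on all 18 libraries. At day 5 Notch1, Jag1 and Hes5 lie above 0 and Hes1 and Hey1 below it, and no point passed the adjusted threshold. Hes5 is not drawn at day 0, where it had 0 to 2 counts per library.

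At day 0 the groups overlapped in all 8 genes, where 10.2% of all genes did not overlap. Notch3 had the smallest p, with 50.7, 34.3 and 56.9 CPM in control and 57.6, 56.4 and 61.8 CPM in Dox (log2 difference 0.31 ± 0.12, adjusted p = 0.26). The low control library is replicate 2, which was also the lowest for Notch1, Notch2 and Jag1. Notch3 had an adjusted p of 0.043 when control replicate 3 was left out, where 1.66% of all genes passed, and 0.0065 with no filter on low counts, where 1.77% did. Without control replicate 2 its difference was 0.12 (adjusted p = 0.5), and in the fit of day 0 alone the adjusted p was 0.97. Jag1 differed by 0.19 ± 0.09 (adjusted p = 0.42) and Hes1 by -0.15 ± 0.1 (adjusted p = 0.58), and Notch1, Notch2, Hes6 and Hey1 lay between -0.16 and 0. Hes5 had 2 counts in all control libraries and 4 in all Dox libraries, too few for a fold change.

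At day 3 the 8 differences lay between -0.1 (Hes6, SE 0.08) and 0.2 (Hey1, SE 0.13), each with an adjusted p of 1. In these 2 genes the libraries of the groups did not overlap, which was so for 11.1% of all genes. Hes6 had 53, 54.5 and 55.6 CPM in control and 49.3, 52 and 51.2 CPM in Dox, and Hey1 had 3.32, 3.78 and 3.76 CPM against 4.4, 4.28 and 3.82 CPM. For Notch3, whose SE was 0.11, the difference was -0.02, and for Notch1 it was 0.14 ± 0.1. Hes5 had 53 counts in the control libraries and 50 in the Dox libraries together.

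At day 5, 4 of the 8 genes (Notch1, Jag1, Hes1 and Hey1) had no overlap between the CPM of the groups, where 26.1% of all genes had none. The same-numbered libraries carry the same batch tag, and 5 genes differed in 1 direction in all 3 such pairs with an unadjusted p under 0.05: Notch1, Jag1 and Hes5 were higher in Dox and Hes1 and Hey1 were lower. Agreement of all pairs was not particular to these genes or to day 5. It was also seen in Notch3 at day 5, in Notch3, Jag1 and Hes1 at day 0, and in Notch1, Hes6 and Hey1 at day 3. Its share over all genes was not computed. With the replicate number as a block in the edgeR fit, Notch1, Jag1 and Hes5 passed, where 5.98% of all genes did. A fit of the 6 day 5 libraries alone, which takes its spread from that day, called Notch1, Jag1, Hes1 and Hey1, where it called 10.6% of all genes, and with the block it called all 5, where it called 17.3%. DESeq2 and limma-voom each called Jag1, Hes5 and Hey1, where they called 8.67 and 6.33% of all genes, and edgeR with no filter on low counts called Notch1, Jag1, Hes1 and Hes5, where it called 3.73%.

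Notch1 had 232, 188 and 208 CPM in the control libraries at day 5 and 261, 244 and 256 CPM in the Dox libraries. Every Dox library was above every control library. The difference was 1.21-fold (log2 difference 0.28 ± 0.1, adjusted p = 0.13). With the block it was 0.28 with an adjusted p of 0.041, and over all alternatives other than left-out libraries the adjusted p ranged from 6e-04 to 0.34.

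For Jag1 the control libraries had 70.4, 67.9 and 73.9 CPM and the Dox libraries 88.4, 81 and 85.6 CPM. Here too every Dox library was above every control library. The difference was 1.2-fold (log2 difference 0.26 ± 0.08, adjusted p = 0.084), and 0.26 with an adjusted p of 0.024 with the block. The adjusted p was 0.0064 without control replicate 2 of day 0, where 5.62% of all genes passed and Notch1 did too (adjusted p = 0.044), and between 0.00077 and 0.18 over the alternatives.

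Notch2 and Notch3 differed less at day 5. Notch2 had 119, 90.9 and 106 CPM in control and 123, 97 and 103 CPM in Dox (log2 difference 0.03 ± 0.11, adjusted p = 0.95). Notch3 had 202, 165 and 193 CPM in control and 203, 190 and 197 CPM in Dox (0.07 ± 0.11, adjusted p = 0.84). In both genes the groups overlapped, and the number 2 library was the lowest of its group in either treatment.

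Within the receptor sum, Notch1 held a larger share in each Dox library than in any control library at day 5. It made up 37.4, 38.1 and 38.8% of the summed TPM in control and 42.1, 43.2 and 42.2% in Dox, a difference of 4.41 percentage points without overlap. Notch3 made up 45.8, 46 and 45.1% in control and 40.8, 42.6 and 43.1% in Dox, a difference of -3.48 points. For both the two-sided exact permutation p was 0.1, the smallest that 3 libraries against 3 can give, and 0.45 after adjustment over 9 shares (3 receptors at 3 days). At day 3 the share of Notch1 was 9.39 ± 0.6% in control and 10.8 ± 1.2% in Dox (SD, n = 3), and at day 0 it was 56 ± 1.1% and 55 ± 1.3%.

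Among the targets Hes5 had the largest difference at day 5. It had 102, 119 and 110 CPM in control and 116, 149 and 151 CPM in Dox. The lowest Dox library, replicate 1, lay below control replicate 2, whereas in TPM the groups did not overlap (182 to 192.34 against 205.32 to 257.37). The difference was 1.26-fold (log2 difference 0.33 ± 0.1, adjusted p = 0.084) and 0.32 with an adjusted p of 0.026 with the block. Without Dox replicate 1 of day 5 it was 0.44 with an adjusted p of 0.016, where 4.02% of all genes passed, and over the alternatives the adjusted p ranged from 0.00085 to 0.5.

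Hes1 was lower in each Dox library than in any control library. Control libraries had 48.8, 54.5 and 49.9 CPM and Dox libraries 44.5, 41.4 and 41.6 CPM. The difference was 1.2-fold downward (log2 difference -0.27 ± 0.09, adjusted p = 0.13), with an adjusted p between 0.0038 and 0.14 over the alternatives. Hey1 had 18.9, 20.3 and 19.2 CPM in control and 14.9, 16.4 and 15.7 CPM in Dox, also without overlap. It was 1.24-fold lower in Dox (-0.31 ± 0.11, adjusted p = 0.13), with an adjusted p between 0.0029 and 0.31 over the alternatives. Hes6 had 22.2, 25.1 and 23.4 CPM in control against 21.1, 26.2 and 26.1 CPM in Dox, with overlap (0.05 ± 0.08, adjusted p = 0.84).

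Hes5 and Hes1 had differences of opposite sign, and their ratio within a library needs no scaling factor. In TPM there were 2.39, 2.21 and 2.62 Hes5 transcripts per Hes1 transcript in the control libraries at day 5 and 3.01, 3.76 and 4.2 in the Dox libraries. The ratio was higher in every Dox library, with group means of 2.41 and 3.65. This ratio was chosen after its values were seen, and no test is given for it. The same pair had a ratio of at most 0.0396 in any library at day 3.

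The Dox effects of 2 days were also compared directly. Between day 3 and day 0 none of the 8 genes passed (0.0562% of all genes did), nor at an unadjusted p under 0.05 (8.05%) or in any other fit. Between day 5 and day 3 none passed either (0.82% of all genes did), and 2 had an unadjusted p under 0.05 (8.31%). These were Hey1, from 0.2 at day 3 to -0.31 at day 5 (difference -0.51 ± 0.17, adjusted p = 0.26), and Jag1, from -0.02 to 0.26 (0.29 ± 0.12, adjusted p = 0.52). No other fit called any of the 8, so the effects at the days are not shown to differ.

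**Figure D4:**
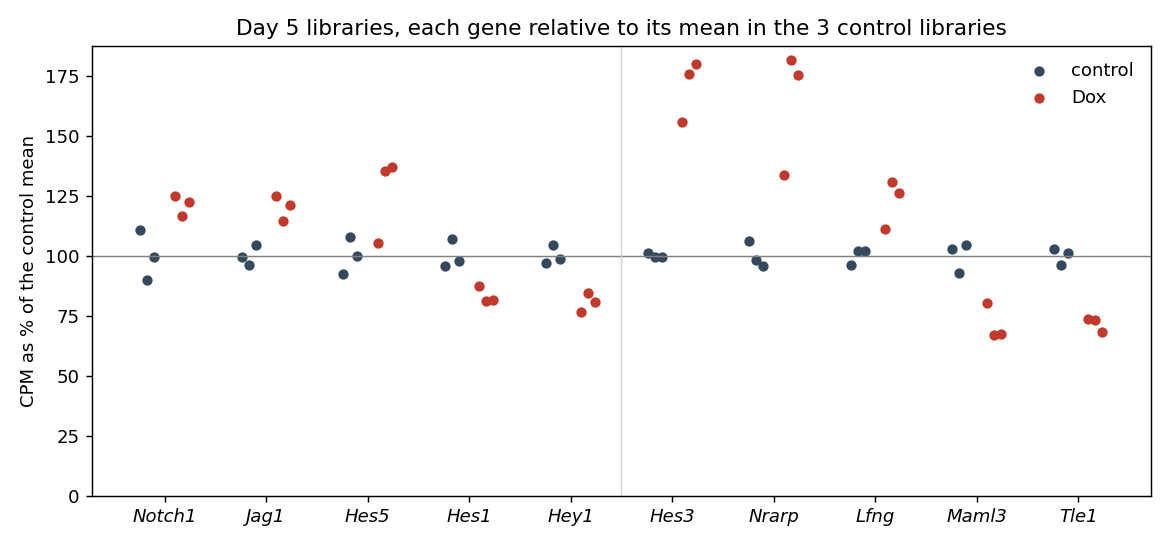
CPM of each library at day 5 as a percent of the mean of the 3 control libraries (vertical axis, from 0) for the 5 of the 8 genes with an unadjusted p under 0.05 (left) and for 5 other pathway genes past the adjusted threshold (right). Points are libraries. The Dox libraries of Hes3 and Nrarp lie above all control libraries, those of Hes1, Hey1, Maml3 and Tle1 below them, and those of Hes5 overlap the controls.

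The same comparisons were made over the 57 other pathway genes. At day 0, 1 of 54 tested genes passed, Neurl1a, a ubiquitin ligase for ligands. It was lower in Dox, as were 0.747% of all genes, with 37.9, 40.7 and 33.7 CPM in control and 30.5, 29.7 and 30 CPM in Dox (log2 difference -0.32 ± 0.07, adjusted p = 0.037). The groups did not overlap, but the call was lost in the fit of day 0 alone (adjusted p = 0.77) and without any 1 of 13 of the 18 libraries (adjusted p up to 0.12), day 0 Dox replicate 2 among them. At day 3 none of the 54 passed in edgeR or in any other fit, nor at an unadjusted p under 0.05.

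At day 5, 6 of the 54 passed, 4 higher and 2 lower, which is 11.1% of those tested beside 4.74% of all genes (2.39% higher and 2.34% lower), with a median log2 difference of 0.03. They fall in several roles: 1 of 5 sugar transferases, 2 of 7 genes of the nuclear complex, 1 of 9 corepressors, 1 of 9 inhibitors and turnover genes and 1 of 5 listed with the Hes and Hey family. None of the 5 tested ligands, 4 ligand uptake genes and 9 protease genes passed. The list was chosen with earlier results of these data known, and no set test was made, so the shares are a description only.

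Hes3 and Nrarp had the largest increases. Hes3, a repressor of the same family, had 97.2, 95.8 and 95.8 CPM in control and 150, 169 and 173 CPM in Dox (1.7-fold, log2 difference 0.77 ± 0.13, adjusted p = 0.0013). Nrarp, a Notch target that in turn limits Notch signalling, had 81.7, 75.7 and 73.9 CPM in control and 103, 140 and 135 CPM in Dox (1.63-fold, 0.71 ± 0.12, adjusted p = 0.001). In both genes every Dox library was well above every control library.

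Lfng and Maml2 were higher by less. Lfng had 103, 109 and 109 CPM in control and 119, 140 and 135 CPM in Dox (1.23-fold, log2 difference 0.3 ± 0.07, adjusted p = 0.021). Maml2, a Mastermind coactivator, had 6.47, 5.23 and 6.38 CPM in control and 9.4, 8.42 and 8.63 CPM in Dox (1.46-fold, 0.55 ± 0.13, adjusted p = 0.015). Neither passed in limma on log2(TPM + 1) (adjusted p = 0.093 and 0.084), and each lost its call without some libraries of day 5: Lfng without any control replicate or without Dox replicate 2 or 3 (adjusted p up to 0.16), Maml2 without control replicate 2 or Dox replicate 1 or 3 (adjusted p up to 0.095).

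Maml3 and Tle1 were lower in Dox. Maml3, the coactivator that had appeared by day 3, had 75.8, 68.5 and 76.9 CPM in control and 59.1, 49.2 and 49.5 CPM in Dox (1.4-fold lower, log2 difference -0.49 ± 0.09, adjusted p = 0.003). Tle1, a Groucho corepressor recruited by Hes proteins, had 57.8, 53.9 and 56.8 CPM in control and 41.4, 41.1 and 38.2 CPM in Dox (1.4-fold lower, -0.48 ± 0.06, adjusted p = 3.7e-05). Tle1 was also the only one of the 54 whose Dox effect differed between day 5 and day 3 (difference -0.51, adjusted p = 0.0032), in a direction in which 0.466% of all genes passed. Hes3, Nrarp, Maml3 and Tle1 kept their calls at day 5 without each library in turn.

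Of the pathway genes that did not pass at day 5, Rbpj had 143 CPM in control and 147 CPM in Dox (log2 difference 0.04 ± 0.1, adjusted p = 0.92). Of the 5 tested ligands 3 had a positive difference, Dll1 (0.25 ± 0.11, adjusted p = 0.25), Dll3 (0.51 ± 0.18, adjusted p = 0.12) and Dll4 (0.45 ± 0.3, adjusted p = 0.53), and 2 a negative one, Jag2 (-0.21 ± 0.14, adjusted p = 0.53) and Dlk1 (-0.31 ± 0.17, adjusted p = 0.4). Heyl had the same sign as Hey1 (-0.45 ± 0.18, adjusted p = 0.22), and the fringe enzyme Mfng the same sign as Lfng (0.54 ± 0.17, adjusted p = 0.086). Tle4, another Groucho corepressor, had the opposite sign to Tle1 (0.21 ± 0.06, adjusted p = 0.083). Tle3 also had a higher mean in Dox (172 CPM in control and 182 CPM in Dox). Tle2 was lower in Dox like Tle1, at a low level (0.922 CPM in control and 0.361 CPM in Dox). Hes7, a repressor of the segmentation clock, had 0.193 CPM in control and 0.0492 CPM in Dox, too low to read.

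**Figure D5:**
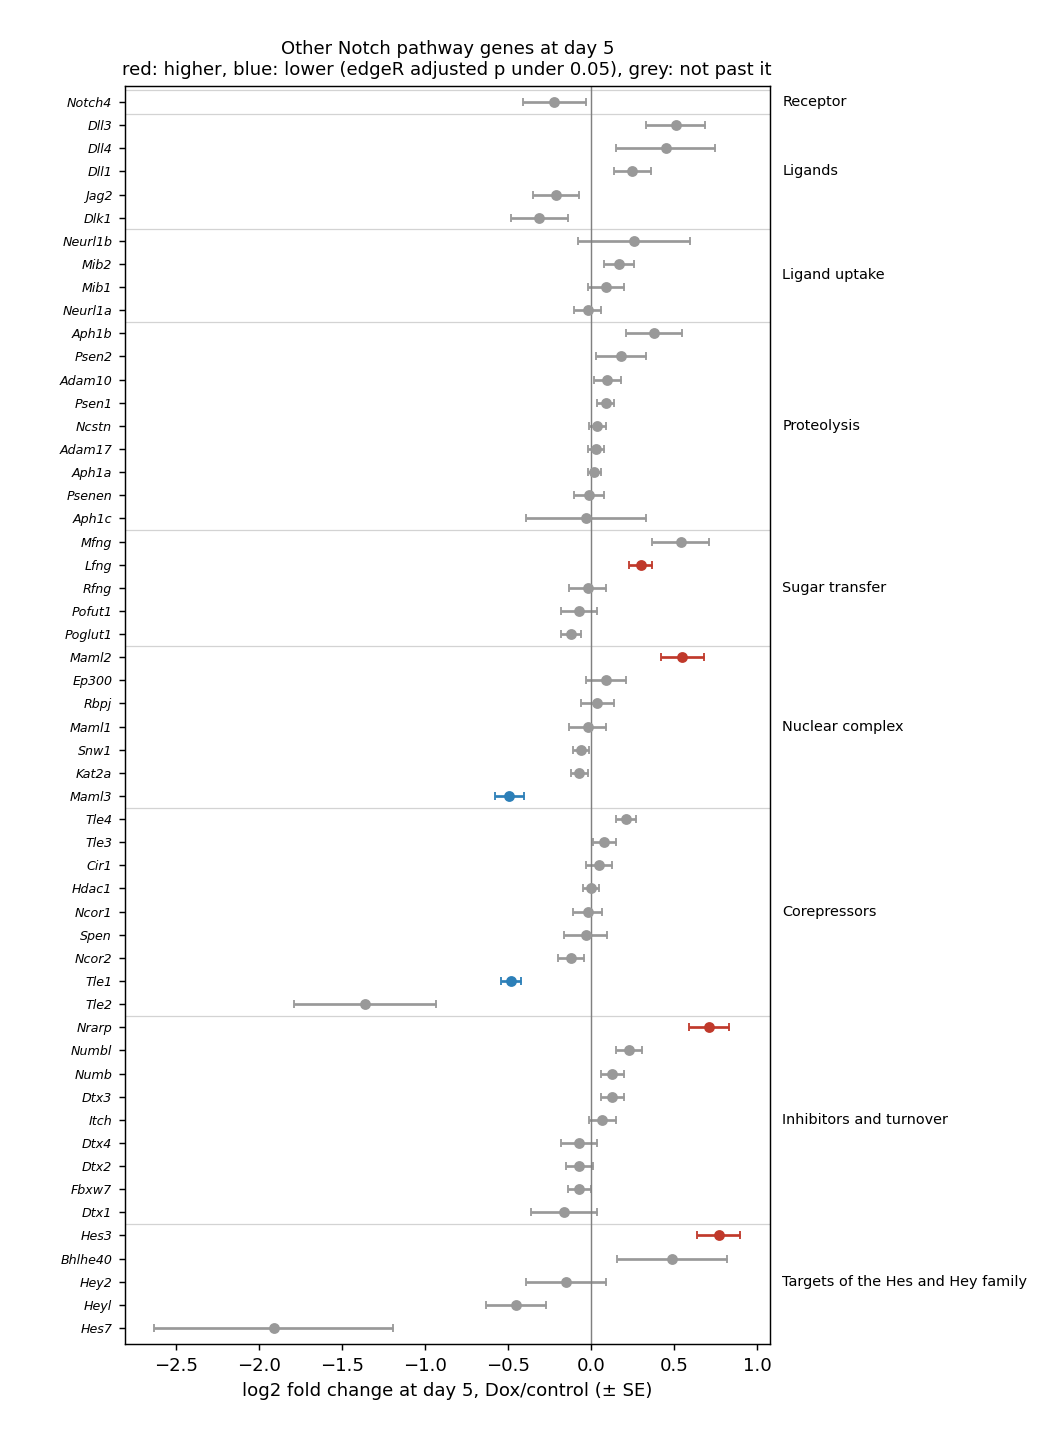
Log2 fold change of Dox over control at day 5 (horizontal axis, points with bars of ± 1 SE) for the 54 tested genes of the pathway list, grouped by role. The 4 genes in red (Lfng, Maml2, Nrarp, Hes3) were higher and the 2 in blue (Maml3, Tle1) lower at an adjusted p under 0.05, and the others in grey did not pass.

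Markers of the cell types that gastruloids can hold also differed at day 5, where 2.39% of all genes were higher and 2.34% lower. Of 8 neural progenitor markers 3 were lower in Dox (Pax6, Olig2 and Nkx6-1), and the summed TPM of the list was 981 to 1050 in control and 946 to 1010 in Dox. Of 8 young neuron markers 4 were higher (Tubb3, Elavl3, Elavl4 and Stmn2) and 1 lower (Neurog2), with a sum of 42.3 to 45.7 against 54.6 to 70.2 TPM. Neuronal markers as a sum thus did not overlap between the groups, and the progenitor markers did. The same young neuron sum was 161 to 174 TPM in control at day 0, before differentiation, so it does not measure neurons alone. There 2 of the 8 markers had a mean of at least 1 TPM, and Dcx was at 0.

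Among mesodermal markers, 1 of 8 somite genes was higher (Pax3, also known from the dorsal neural tube) and 3 lower (Meox1, Pax1 and Foxc2), with sums of 107 to 121 TPM in control and 80.7 to 101 TPM in Dox. Of 8 presomitic markers, 6 tested, Lfng alone was higher, with sums of 87.5 to 90.3 and 104 to 116 TPM, and Msgn1 was listed at 0 in both groups. Nearly all of that sum is Lfng, a pathway gene itself. Its mean was 84 of 88.5 TPM in control and 106 of 111 TPM in Dox, so the sum says little of presomitic cells. Dll3 and Hes7 of the same list are pathway genes too. Of 9 endothelial markers none had a mean of 1 TPM in either group (sums 2.65 to 3.15 and 2.88 to 4.4 TPM), and Tek was higher in Dox. Of 6 mural markers 3 had such a mean (sums 5.46 to 8.18 and 6.77 to 8.72 TPM), and Tagln was higher and Pdgfrb lower. Of 8 endoderm markers Foxa2 was lower (sums 9.93 to 10.6 and 6.29 to 9.33 TPM), of 6 neural crest markers Tfap2b was higher and Ets1 lower (7.72 to 11.1 and 6.54 to 7.76 TPM), none of 4 tested cardiac markers passed, and of 8 pluripotency markers Nanog was higher (210 to 232 and 215 to 220 TPM). The part of these cell types in the differences of Notch1, Jag1, Hes1, Hes5 and Hey1 and of the pathway genes was not tested.

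The genes whose pattern was most like each of the 8 were taken as the 3 with the highest Pearson correlation of log2 CPM over the 18 libraries, among 11454 candidates. The libraries share their days, so high correlations are common. For Notch1 these were Hdac7 (r = 0.994), Sfrp1 (0.99) and Plce1 (0.99), and for Jag1 Sema5b (0.993), Dzip1 (0.991) and Tfdp2 (0.991). For Notch2 they were Smchd1 (0.995), Mycbp2 (0.994) and Soga1 (0.994), and for Notch3 Srl (0.998), Zfp423 (0.994) and Usp44 (0.992).

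Patterns close to the late targets were common. For Hes5 the nearest were Zfp41 (0.997), Rfx4 (0.997) and Fgfr3 (0.996), and 730 candidates had r over 0.95. For Hey1 they were Pbx2 (0.994), Irx3 (0.993) and Rbm15b (0.992), with 744 over 0.95. Hes6 was nearest to Rtl8a (0.992), Khk (0.992) and Gabra3 (0.991), with 263. Hes1 stood apart, with no candidate over 0.95 and Ppp1r16a (0.931), Chtop (0.928) and Hoxa7 (0.927) as the nearest. By Spearman's rho the order changed for some of these genes, for example Zfp423, whose rho with Notch3 was 0.719.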

How the data were processed

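Poly(A) RNA was sequenced with a stranded mRNA kit, per the labels' protocols. Per the submitters' processing notes, GRCm38 was the build and the tools included RSEM 1.3.3, STAR 2.7.10a, Trimmomatic and DESeq2 1.38.2. Their order, the annotation release and the strand setting are not given in the sources used here. The authors deposited 1 RSEM gene table per library with expected counts (estimated reads of a gene, with no scaling), and with TPM, which is scaled to transcript length and depth. The FPKM column was left out. All expected counts were rounded, since 6.54 to 7.49% were not whole. Of the 55401 IDs, 55141 matched a GENCODE M21 symbol.

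Counts of all 18 libraries were fitted in edgeR 4.0.16 (R 4.3.3) with 1 mean per group, TMM factors (0.894 to 1.063), filterByExpr defaults (minimum count 10, minimum total 15) and quasi-likelihood F tests. Adjusted p is Benjamini-Hochberg over 17795 genes, with a threshold of 0.05. The fit had 12 residual degrees of freedom and was tested on simulated data. CPM uses TMM factors, and correlations use log2 CPM with a prior count of 2.

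Replicate number and batch tag are the same in the labels, and on that ground the numbers pair the libraries. As a check, deviations from the group means were correlated across genes between control and Dox. At day 0 pairs of 1 number had r of 0.206 to 0.331 and other pairs -0.252 to 0.055. The day 3 values were 0.01 to 0.036 and -0.043 to 0.02. Those of day 5 were 0.022 to 0.051 and -0.057 to 0.02. Alternatives were a replicate block, DESeq2 1.42.0, limma-voom (limma 3.58.1), no filter, a minimum of 1 CPM in 3 libraries, library size alone, RLE factors, limma-trend on log2 of TPM plus a pseudocount of 1, each day alone with and without the block, leaving out each library, and Spearman correlation.

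The genes, the pathway list and the marker lists were chosen with earlier results of these data known. All 8 genes are reported, with the pathway genes past the threshold in each Dox comparison (up to 6) and the 3 higher and 3 lower with the largest change in each control comparison at 5 CPM or more. The uncalled pathway genes given at day 5 were chosen after their values were seen. Promoters (250 bases before the start) are from RefSeq, GRCm38.p6, and were matched by symbol.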

Additional observations from a re-analysis of the deposited data

Results flagged for a closer look

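Among the Notch genes followed, the pathway list and Rnaseh1, the Dox effect differed between days in 2 genes (edgeR interaction term). Other genes were not screened here. Over all genes, 0.0562% passed for day 3 minus day 0 and 0.82% for day 5 minus day 3. Rnaseh1, the induced gene, was raised by 2.43 on the log2 scale at day 0 and by 1.53 at day 3, a difference of -0.89 ± 0.11 (adjusted p = 0.00087), while day 5 (1.54) and day 3 did not differ beyond the error. Tle1, the corepressor recruited by Hes proteins, had a Dox effect at day 5 that was lower than at day 3 by -0.51 (adjusted p = 0.0032). No group had more than 3 libraries, so single libraries were not screened as outliers within groups.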

How the results depend on the processing

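At day 5, where no gene of the 8 passed, the replicate block called 3, DESeq2 3, limma-voom 3, no filter 4, the day alone 4 and the day alone with the block 5. At day 0 no filter called 1. Leaving out a library gave 0 to 1 at day 0 and 0 to 2 at day 5. The block changed no other call among the genes named. Of the pathway list, 1 gene passed at day 0 against 3 with no filter, 0 with the day alone, 0 with the day alone and the block, and 0 to 1 with a library left out. At day 5 the 6 became 10 with DESeq2, 11 with the day alone, 15 with the block as well and 4 to 8 with a library left out. For the Dox effect of day 5 minus day 3 the 1 became 2 with DESeq2, 2 with no filter and 1 to 2 with a library left out.

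Over all genes, the 185 at day 0 became 313 with the replicate block, 508 with DESeq2, 549 with no filter, 3 with the day alone and 76 to 412 with a library left out. The 3 at day 3 became 5 with DESeq2, 25 with no filter, 6 on log2(TPM + 1), 12 with the day alone and 98 with the day alone and the block. The 843 at day 5 became 1280 with DESeq2, 1628 with the day alone, 2658 with the day alone and the block and 410 to 1150 with a library left out. The 10 for day 3 minus day 0 became 35 with the block, 117 with DESeq2, 25 with limma-voom, 203 with no filter and 3 to 52 with a library left out, and the 146 for day 5 minus day 3 became 313 with DESeq2, 385 with no filter, 223 on log2(TPM + 1) and 45 to 219. The cause was not tested.

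Changes of sign were limited to Dox differences that did not pass. On log2(TPM + 1) they were Hes5 at day 0 (-0.13), Notch2 at day 3 (-0.01), and Hes5 (0.37) and Hes6 (0.01) for day 3 minus day 0. With a library left out the ranges crossed 0 for Notch2 at day 0 (-0.18 to 0.04), day 3 (-0.04 to 0.06), day 5 (-0.07 to 0.13), day 3 minus day 0 (-0.03 to 0.2) and day 5 minus day 3 (-0.08 to 0.12). They also crossed it for Notch1 at day 0 (-0.12 to 0.08), Notch3 at day 5 (-0.01 to 0.13), Hes1 at day 3 (-0.09 to 0.01), Jag1 at day 3 (-0.06 to 0.01), Hes5 at day 3 (-0.04 to 0.38) and for day 5 minus day 3 (-0.05 to 0.37), and Hes6 for day 3 minus day 0 (-0.08 to 0.04). With library size alone, the median over all genes shifted by 0.148 in control day 3 against day 0. In control, several rises kept their calls on log2(TPM + 1) at a smaller size. Among them were 0.51 for Hes5, 1.46 for Maml3, 2.51 for Dll1 and 2.44 for Dtx4 at day 3 and 2.94 for Heyl at day 5. Depth limits Hes5 before day 5 and Hes7.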
